A study of Mus musculus with 6 samples.

Results

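The genes described here encode the MHC class II molecules of the macrophage, the receptors and ligands through which an antigen-presenting cell costimulates or restrains T cells, and an early activation marker. They are the class II chains H2-Aa, H2-Ab1 and H2-Eb1, the invariant chain Cd74, the class II transactivator Ciita, the costimulatory molecules Cd40, Cd80 and Cd86, the inhibitory ligand Cd274 (PD-L1) and Cd69. The 10 genes were chosen by name, each matched 1 row among the 55335 rows of the deposited table, and 9 of them reached the mean level needed for the test.

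All cultures were macrophages (BMDMs) grown for 6 days from the marrow of male wildtype C57BL/6 mice aged 6 to 8 weeks. In the CM + 4OI group (3 samples), cells received medium conditioned by acinar cells together with 200 µM 4-octyl itaconate (4OI), a membrane-permeable derivative of the metabolite itaconate, for 4 h. In the CM group (3 samples), cells received the same medium without 4OI for 4 h. In both groups the acinar cells had been exposed to 200 nM caerulein, a secretagogue, for 5 h, and their medium was added 1:1, so neither group shows macrophages without medium. The labels number the samples of each group as biological replicates 1 to 3. Whether these came from separate mice is not given there, so p-values measure the spread between samples.

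MHC class II molecules present peptides from the endosome to CD4 T cells. The alpha and beta chains assemble with the invariant chain, which guides them to the endosome and fills the peptide groove until it is degraded. The class II genes and Cd74 share promoter elements, the X and Y boxes, at which the RFX complex and NF-Y gather, and transcription depends on CIITA, a coactivator that interferon gamma induces. T cell priming also needs costimulation by CD80 and CD86, and CD40 on the presenting cell receives the signal of CD40 ligand. CD274 on the presenting cell restrains T cells through PD-1.

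The elements shared by class II chains are shown first. The class II genes also moved together across these samples, and any link of the elements to this was not tested. RefSeq windows (GRCm38.p6) of the 250 bases before a transcription start were available for 4 of the 10 genes, with none for H2-Ab1 or Cd74. The stretches of H2-Aa (chr17:34287837-34287934, minus strand) and H2-Eb1 (chr17:34305746-34305842, plus strand) are given 5′ to 3′, with the first letters of the X box (GCAAC) and the Y box (CTGATTGG) in capitals.
H2-Aa: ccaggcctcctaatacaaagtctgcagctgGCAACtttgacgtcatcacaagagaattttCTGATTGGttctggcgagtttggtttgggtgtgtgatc
H2-Eb1: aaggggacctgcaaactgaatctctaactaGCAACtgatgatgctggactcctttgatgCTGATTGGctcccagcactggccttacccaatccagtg
The Y box began 51 bases before the start of H2-Aa and 62 bases before that of H2-Eb1. The distance from GCAAC to the Y box was 30 bases in H2-Aa and 29 in H2-Eb1. On both strands, CTGATTGG was found in 3.83% of all 32851 windows and GCAAC in 29.9%. With GCAAC before CTGATTGG on the gene's strand at a distance of 29 or 30 bases, 4 windows remained, those of H2-Aa, H2-Eb1, H2-Eb2 and H2-Oa. All 4 belong to class II genes, and the letters GCAAC and the distances were taken from the first pair after their sequences had been seen. The X box pattern searched first (G, any 2 bases, AC, any 3 bases, TG) is found in 33.2% of all windows. It matched H2-Eb1 and Cd80 but not H2-Aa, and GCAAC also matched Cd80 on the other strand. H2-Eb2 and H2-Oa were nearly silent here, with H2-Oa at 0 to 0.0401 FPKM in CM + 4OI and 0 to 0.0774 FPKM in CM (FPKM counts fragments relative to transcript length and to all mapped fragments of the library). The windows of Cd274 and Cd80 held no CTGATTGG on either strand.

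With 4OI added, Cd69, Cd40, Cd274 and Cd86 fell, and the class II chains, Cd74 and Cd80 were not called in either direction. Of the 9 tested genes, 4 were called lower, against 13.2% of all 10468 tested genes, and 0 were called higher, against 19.3% of all tested genes (limma adjusted p under 0.05). Among these 4, Cd69 met the filter for the test only through its level in CM. At an unadjusted p under 0.05 the number higher was also 0. In the same 4 genes every CM + 4OI sample lay under every CM sample, a pattern found in 17.8% of all tested genes, and in none of the 9 did every CM + 4OI sample lie over every CM sample, against 31.2%. With the replicate number as a block, the counts were again 4 lower, against 14.5% of all genes, and 0 higher, against 22.3%. The median log2 fold change of the 9 genes was -0.21, beside 0.06 over all tested genes. Of all calls 59.3% were higher as deposited and 45.2% after median-of-ratios scaling. Over all tested genes 2020 were called higher. That number was 1311 when CM + 4OI replicate 2 was left out, and 1089 when replicate 2 was left out of both groups. Cd69, Cd40, Cd274 and Cd86 were called lower under each of the 15 alternatives.

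**Figure D1:**
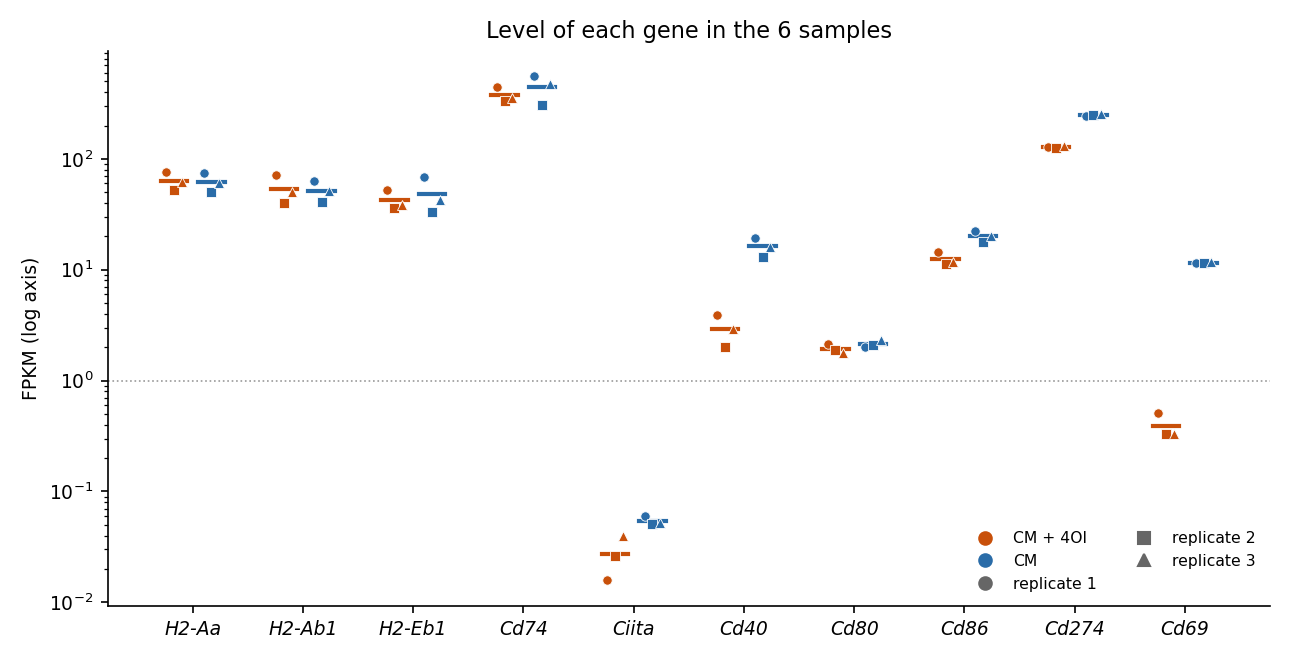
Points give FPKM of each gene in each sample on a log axis, CM + 4OI left of CM, with symbols for replicate numbers, bars for group means and a dotted line at 1 FPKM. Cd69 lies at 0.327 to 0.511 FPKM in CM + 4OI and at 11.4 to 11.9 FPKM in CM, while the ranges of each class II chain overlap between the groups.

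The class II chains were abundant in both groups. H2-Aa, the alpha chain of the I-A molecule (ENSMUSG00000036594, chromosome 17, 34282744 to 34287823, minus strand, GRCm38, the same assembly as mm10), had 75.4, 52.2 and 61.3 FPKM in CM + 4OI samples 1, 2 and 3, against 74.0, 50.3 and 61.1 FPKM in CM samples 1, 2 and 3. The same-numbered samples nearly coincided, and the groups overlapped over almost their whole range. Group means were 62.95 ± 11.7 FPKM in CM + 4OI and 61.8 ± 11.9 FPKM in CM (SD, n = 3 each, here and below). The log2 fold change was 0.03 (SE 0.18, limma adjusted p = 0.925), with a 95% interval from -0.40 to 0.45.

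H2-Ab1, its beta chain partner (ENSMUSG00000073421, chromosome 17, 34257689 to 34269419, plus strand), lies 13.3 kb from H2-Aa. It had 71.4, 40.1 and 50.1 FPKM in CM + 4OI samples 1, 2 and 3, against 63.4, 40.8 and 51.2 FPKM in CM. Sample 1 was the highest of its group in both, and the groups overlapped. Its log2 fold change was 0.04 (SE 0.24, limma adjusted p = 0.920, 95% interval -0.53 to 0.61).

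H2-Eb1, the beta chain of I-E (ENSMUSG00000060586, chromosome 17, 34305867 to 34316674, plus strand), had 52.1, 36.1 and 38.6 FPKM in CM + 4OI samples 1, 2 and 3, against 68.7, 33.1 and 42.5 FPKM in CM. CM sample 1 stood highest, and the groups overlapped. The log2 fold change was -0.14 (SE 0.27, limma adjusted p = 0.742, 95% interval -0.79 to 0.52). C57BL/6 mice lack a working I-E alpha chain, and its pseudogene H2-Ea-ps was listed at 0 in all 6 samples. H2-Eb1 was thus read at a level near that of H2-Ab1 with no measured transcript of its partner chain. Per length, the ratio of H2-Eb1 to H2-Ab1 was 0.800 ± 0.0888 in CM + 4OI and 0.909 ± 0.152 in CM, and that of H2-Ab1 to H2-Aa was 0.844 ± 0.0920 in CM + 4OI and 0.835 ± 0.0231 in CM. Neither ratio differed between the groups beyond its spread (exact two-sided permutation p = 0.4 and 0.9, adjusted p = 0.5 and 0.9 over the 5 ratios compared).

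Cd74, which encodes the invariant chain (ENSMUSG00000024610, chromosome 18, 60803848 to 60812652, plus strand), was the highest of the 10 genes. It had 448, 330 and 355 FPKM in CM + 4OI samples 1, 2 and 3, against 560, 308 and 470 FPKM in CM. By level it ranked on average 84.3 in CM + 4OI and 79.0 in CM among the 10468 tested genes. Numbers 1 and 3 were lower in CM + 4OI than in CM, number 2 was higher, and the groups overlapped. For Cd74 the log2 fold change was -0.21 (SE 0.23, limma adjusted p = 0.527, 95% interval -0.76 to 0.34). Relative to the summed class II chains, Cd74 was 2.39 ± 0.160 in CM + 4OI and 2.75 ± 0.279 in CM (exact two-sided permutation p = 0.2, adjusted p = 0.333).

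Ciita, the class II transactivator (ENSMUSG00000022504, chromosome 16, 10480059 to 10528418, plus strand), was close to silent. It had 0.0157, 0.0262 and 0.0396 FPKM in CM + 4OI samples 1, 2 and 3, against 0.0598, 0.0512 and 0.0522 FPKM in CM. Every CM + 4OI sample lay under every CM sample, but at the estimated depth these values stand for at most 2.39 to 7.79 fragments per library. Dexi covers 3.45% of the exon length of Ciita on the other strand and averaged 1.20 FPKM in CM + 4OI and 1.16 FPKM in CM. The strand setting is not stated, so some of these few fragments could belong to Dexi. Ciita lay under the mean of 1 FPKM needed for the test. Without that filter its limma adjusted p was 0.180, and no difference was detectable at this depth. The class II chains thus stood at 33.1 to 75.4 FPKM in samples whose Ciita was at most 0.0598 FPKM. In the same samples, each of the 8 dendritic cell markers was under 1 FPKM, with a sum of 0.632 to 0.701 FPKM in CM + 4OI and 0.922 to 1.37 FPKM in CM and with Flt3 at 0 throughout. The 5 B cell markers summed to 0.516 to 0.626 FPKM in CM + 4OI and 0.624 to 0.715 FPKM in CM.

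**Figure D2:**
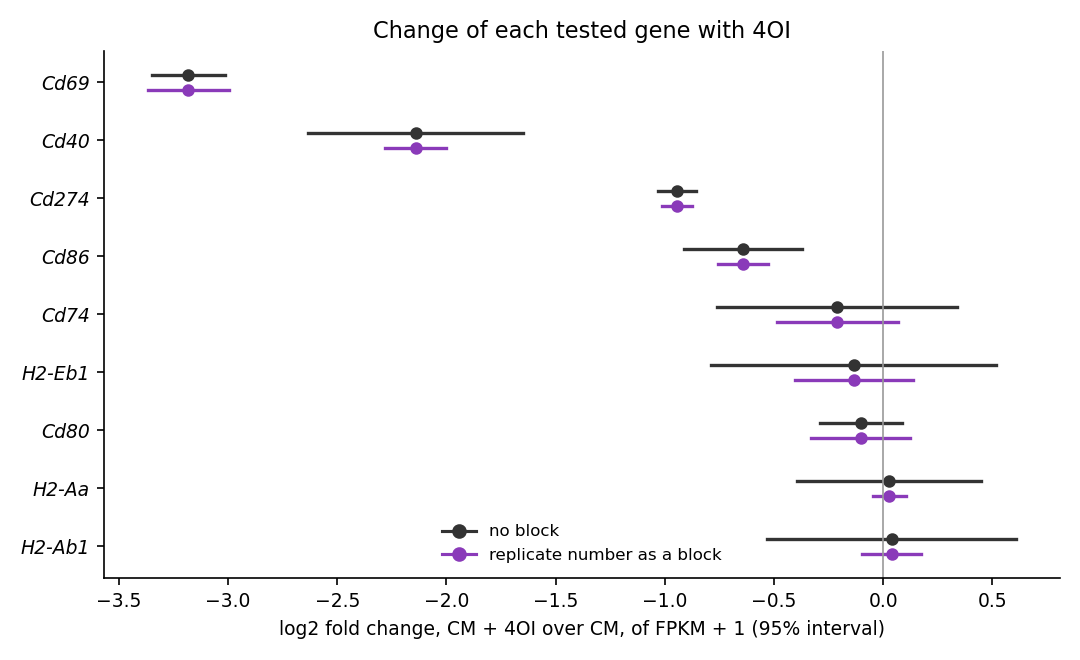
Points give the log2 fold change of FPKM + 1, CM + 4OI over CM, and lines its 95% interval, in the fit without and with the replicate number as a block. The intervals of Cd69, Cd40, Cd274 and Cd86 lie below 0 in both fits, and those of the other 5 genes include 0.

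The spread of the class II genes followed the replicate number rather than the group. In both groups number 1 was highest, number 3 next and number 2 lowest for H2-Aa, H2-Ab1, H2-Eb1 and Cd74. The 3 chains summed to 199, 128 and 150 FPKM in CM + 4OI samples 1, 2 and 3, against 206, 124 and 155 FPKM in CM. Of the sum of squares of log2(FPKM + 1), the number took 99.4% for H2-Aa, 97.2% for H2-Ab1, 87.2% for H2-Eb1 and 75.4% for Cd74. The median over all tested genes was 21.8%, and 23.4% of them had more than 50% by number. The group took 0.385% for H2-Aa, against 99.8% for Cd69. As a description, Cd69 and Cd274 were split almost wholly by group and the class II chains by number.

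With the number as a block, the intervals of the class II genes were narrower and still included 0. On the scale of FPKM + 1, the ratio of CM + 4OI to CM had a 95% interval of 0.967 to 1.07 for H2-Aa (limma adjusted p = 0.498) and 0.935 to 1.13 for H2-Ab1 (limma adjusted p = 0.589). It was 0.755 to 1.10 for H2-Eb1 (limma adjusted p = 0.351) and 0.714 to 1.05 for Cd74 (limma adjusted p = 0.183).

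Other transcripts moved with the number as well. The 4 fibroblast markers summed to 7.91, 29.3 and 7.97 FPKM in CM + 4OI samples 1, 2 and 3, against 9.08, 51.7 and 5.64 FPKM in CM. The number with the lowest class II level, number 2, thus had the highest fibroblast level in both groups. The 6 acinar cell markers summed to 11.7, 6.77 and 9.80 FPKM in CM + 4OI, against 9.68, 5.69 and 9.52 FPKM in CM, in the same order as the class II genes. The acinar sum was also higher in CM + 4OI than in CM within every number. Of the 3 acinar markers tested, 1 was called higher, against 19.3% of all tested genes. This was Cela1, a pancreatic elastase gene. It rose to 2.28 ± 0.266 FPKM in CM + 4OI, against 1.66 ± 0.0592 FPKM in CM (limma adjusted p = 0.0278). Ctrb1, the highest of them, had 3.50 ± 1.23 FPKM in CM + 4OI and 3.39 ± 1.51 FPKM in CM (limma adjusted p = 0.910). Prss2 was not called either (limma adjusted p = 0.697), and Cpa1, Pnlip and Cel were too low to be tested. Macrophage markers summed to 11431, 10813 and 11157 FPKM in CM + 4OI, against 11311, 10643 and 10908 FPKM in CM, again in that order but within 1.06-fold. Neutrophil markers summed to 49.1, 52.0 and 41.1 FPKM in CM + 4OI, against 45.7, 65.7 and 35.7 FPKM in CM, with number 2 highest in both. The part of these cells in the class II levels was not tested, and in bulk RNA fewer cells of a type and less RNA per cell cannot be told apart.

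**Figure D3:**
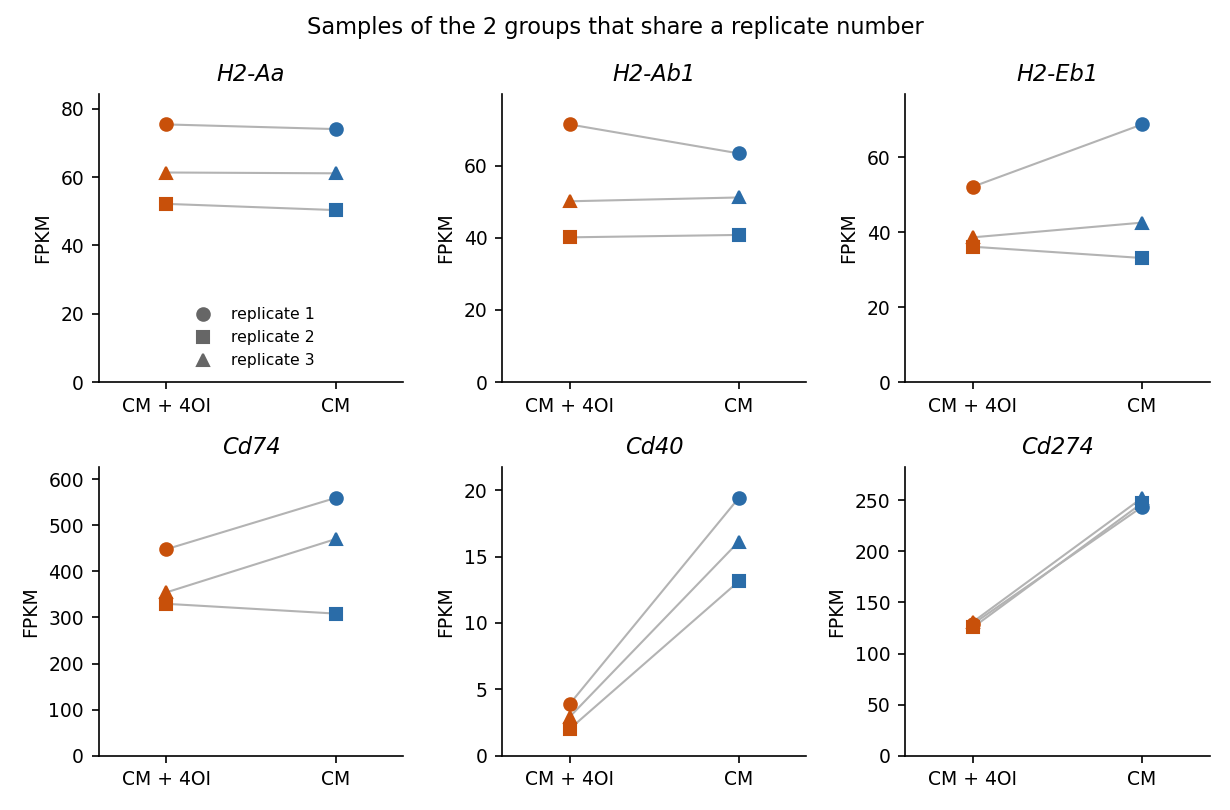
FPKM of 6 genes in CM + 4OI (left) and CM (right), with lines joining samples of the same replicate number. The lines of H2-Aa are level and stacked by number, those of Cd274 start at 126 to 131 FPKM in CM + 4OI and end at 244 to 252 FPKM in CM with hardly any spread between numbers.

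**Figure D4:**
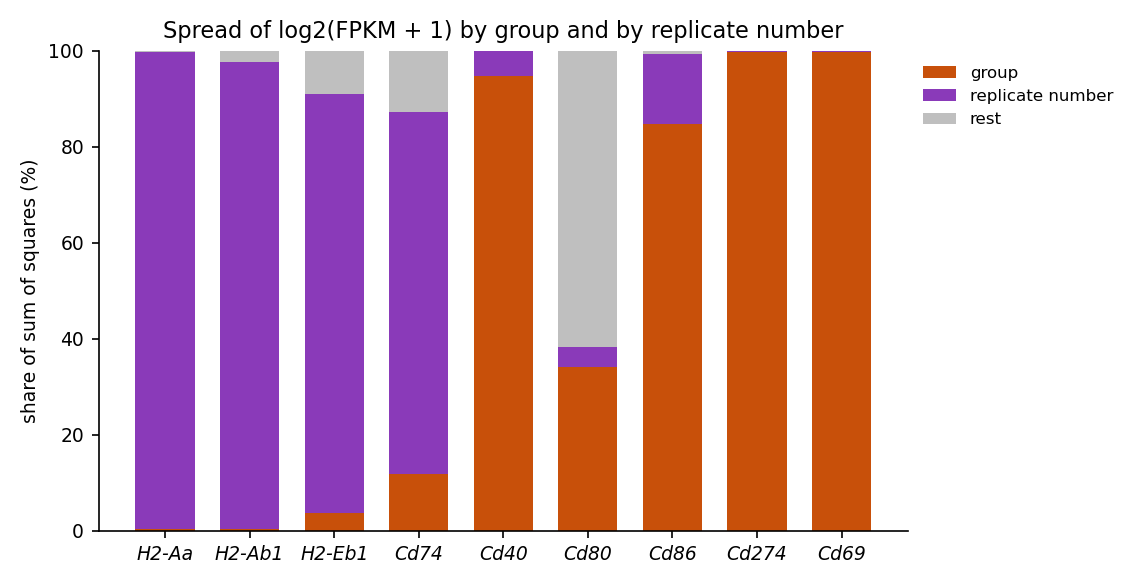
Stacked bars give the share of the sum of squares of log2(FPKM + 1) that falls to the group, the replicate number and the rest for the 9 tested genes. The number takes 75.4% to 99.4% for the 4 class II genes, and the group takes 84.8% to 99.8% for Cd40, Cd86, Cd274 and Cd69.

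CD40, the receptor for CD40 ligand, is induced on activated macrophages. Cd40 (ENSMUSG00000017652, chromosome 2, 165055627 to 165072948, plus strand) had 3.88, 2.01 and 2.92 FPKM in CM + 4OI samples 1, 2 and 3, against 19.4, 13.1 and 16.1 FPKM in CM. The groups were far apart, and number 1 was again highest and number 2 lowest in both. For Cd40 the log2 fold change was -2.14 (SE 0.20, limma adjusted p = 5.0e-04), the 24th lowest of all tested genes. Within numbers 1, 2 and 3, CM exceeded CM + 4OI by 5.00-fold, 6.55-fold and 5.53-fold.

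CD80 and CD86 both bind CD28 and CTLA-4 on T cells. Cd86 (ENSMUSG00000022901, chromosome 16, 36603869 to 36666081, minus strand) fell to 12.5 ± 1.78 FPKM in CM + 4OI, against 20.1 ± 2.14 FPKM in CM. It had 14.5, 11.2 and 11.9 FPKM in CM + 4OI samples 1, 2 and 3, against 22.2, 18.0 and 20.0 FPKM in CM, with no overlap. The log2 fold change was -0.64 (SE 0.11, limma adjusted p = 0.00637). Cd80 (ENSMUSG00000075122, chromosome 16, 38455561 to 38496335, plus strand) was the lower of the pair, with 2.16, 1.89 and 1.76 FPKM in CM + 4OI samples 1, 2 and 3, against 2.01, 2.10 and 2.33 FPKM in CM. Its groups overlapped, and its log2 fold change was -0.10 (SE 0.078, limma adjusted p = 0.358, 95% interval -0.29 to 0.08).

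Per length, Cd86 exceeded Cd80 by 6.48 ± 0.472-fold in CM + 4OI and by 9.40 ± 1.43-fold in CM. Every CM + 4OI ratio lay under every CM ratio. The exact two-sided permutation test gave p = 0.1, the smallest that 3 samples against 3 allow, and adjusted p = 0.25, so this difference in ratio did not pass the threshold.

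Cd274, which encodes PD-L1 (ENSMUSG00000016496, chromosome 19, 29367455 to 29388095, plus strand), was, after Cd74, the highest of the 10 genes in both groups. It had 129, 126 and 131 FPKM in CM + 4OI samples 1, 2 and 3, against 244, 247 and 252 FPKM in CM. Group means were 128 ± 2.73 FPKM in CM + 4OI and 248 ± 4.36 FPKM in CM, so the samples of a group nearly coincided and the groups did not overlap. For Cd274 the log2 fold change was -0.94 (SE 0.036, limma adjusted p = 2.07e-05). By level it ranked on average 291 in CM + 4OI and 139 in CM among the tested genes, so it stayed abundant in both. An antisense gene, AC119228.1, covers 14.1% of the exon length of Cd274 and averaged 1.68 FPKM in CM + 4OI and 3.98 FPKM in CM. Without a stated strand setting, reads in that stretch cannot be told apart.

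Relative to the sum of Cd80 and Cd86, Cd274 was 8.97 ± 1.09 in CM + 4OI and 11.2 ± 1.14 in CM (exact two-sided permutation p = 0.1, the smallest possible, adjusted p = 0.25). The other PD-1 ligand gene, Pdcd1lg2, lies 22.8 kb from Cd274. It was read at 0.0202, 0.124 and 0.136 FPKM in CM + 4OI samples 1, 2 and 3, against 0.234, 0.329 and 0.311 FPKM in CM, and was too low to be tested.

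Cd69, an early activation antigen of leukocytes whose protein retains the receptor S1PR1 inside lymphocytes (ENSMUSG00000030156, chromosome 6, 129267325 to 129275436, minus strand), had the lowest log2 fold change of the 9 tested genes. It had 0.511, 0.327 and 0.328 FPKM in CM + 4OI samples 1, 2 and 3, against 11.4, 11.5 and 11.9 FPKM in CM. The CM samples were nearly equal, and every CM + 4OI sample lay far below them. All CM + 4OI samples were under 1 FPKM, so Cd69 met the filter for the test only through its level in CM. The mean level in CM was 29.8-fold that in CM + 4OI. On the scale of FPKM + 1, which compresses low values, the log2 fold change was -3.18 (SE 0.069, limma adjusted p = 3.66e-06), the 5th lowest of all tested genes. With a pseudocount of 0.1 it was -4.60. The gene of its partner receptor, S1pr1, was not called, with 16.6 ± 1.22 FPKM in CM + 4OI and 18.1 ± 3.23 FPKM in CM (limma adjusted p = 0.543).

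The T cell and NK cell markers, which include cells known for high Cd69, were absent or low. Cd3d, Cd3g, Cd8a and Ncr1 were at 0 in all 6 samples. The 7 markers summed to 4.04 to 5.07 FPKM in CM + 4OI and 4.23 to 4.31 FPKM in CM, nearly all of it Cd4. The neutrophil markers, led by S100a9, summed to 41.1 to 52.0 FPKM in CM + 4OI and 35.7 to 65.7 FPKM in CM, and Ly6g was at 0. Among the 8 macrophage markers, listed in 9 rows because Itgam has 2, Lyz2 and Cd68 were highest. Of these rows 2 fell with 4OI, against 13.2% of all tested genes. Mertk fell to 12.99 ± 0.972 FPKM in CM + 4OI, against 23.3 ± 1.51 FPKM in CM, and Fcgr1 to 375 ± 31.9 FPKM in CM + 4OI, against 541 ± 22.1 FPKM in CM (limma adjusted p = 3.85e-04 and 0.00180). Estimated depths were 22.0 to 25.3 M fragments in CM + 4OI and 18.0 to 24.5 M in CM.

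Of 13 genes of class II chains, loading and processing outside the members, 8 were tested. Of these 2 fell, against 13.2% of all tested genes, 0 rose, against 19.3%, and 6 were not called. At an unadjusted p under 0.05 the number higher was also 0, and the list median log2 fold change was -0.12. Whether this or the lists below depart from these shares was not tested. With the replicate number as a block 3 fell, against 14.5% of all tested genes. The gained gene was H2-DMb1, a chain of the peptide-loading molecule H2-M, with 21.9, 18.6 and 20.4 FPKM in CM + 4OI samples 1, 2 and 3, against 25.7, 21.6 and 24.5 FPKM in CM. It was lower in CM + 4OI within every number, while the groups overlapped (limma adjusted p = 0.0866, and 0.00893 with the block). Lgmn, an endosomal asparaginyl protease, fell to 372 ± 1.67 FPKM in CM + 4OI, against 481 ± 3.35 FPKM in CM (limma adjusted p = 3.85e-04). March1, the ubiquitin ligase that removes class II and CD86 from the surface, fell to 15.5 ± 0.710 FPKM in CM + 4OI, against 17.6 ± 0.239 FPKM in CM (limma adjusted p = 0.0324). Its exons overlap the antisense gene Gm15354, listed at 0, over 7.64% of their length. The call of March1 was lost when any single sample except CM + 4OI replicate 3 was left out (limma adjusted p = 0.0711 to 0.101). It was also lost with no filter on low values (limma adjusted p = 0.0511). The list had 1 lower gene when CM + 4OI replicate 1 or 2 or CM replicate 1 or 3 was left out, and also 1 when replicate 2 was left out of both groups. Ctss, which trims the invariant chain, had 3587 ± 203 FPKM in CM + 4OI and 3756 ± 296 FPKM in CM and was not called (limma adjusted p = 0.554).

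For class II transcription and its inputs all 17 genes were tested. Of these 7 fell, against 13.2% of all tested genes, only Prdm1 rose, against 19.3%, and 9 were not called. The list median log2 fold change was -0.10. Socs1, a feedback inhibitor of interferon signalling, fell to 1.59 ± 0.418 FPKM in CM + 4OI, against 6.24 ± 0.833 FPKM in CM (limma adjusted p = 4.55e-04). Irf1, a transcription factor that interferon gamma induces, fell to 17.6 ± 1.19 FPKM in CM + 4OI, against 39.0 ± 2.47 FPKM in CM (limma adjusted p = 9.22e-05). Jak2, a cytoplasmic kinase that associates with cytokine receptors, fell to 29.1 ± 0.765 FPKM in CM + 4OI, against 47.4 ± 4.29 FPKM in CM (limma adjusted p = 6.17e-04). Genes that fell also included Ifngr2, a chain of the interferon gamma receptor, Spi1, which encodes the macrophage factor PU.1, and Rfx5, a subunit of the complex that binds the X box.

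Rfx5 had 1.77 ± 0.145 FPKM in CM + 4OI and 3.27 ± 0.213 FPKM in CM (limma adjusted p = 9.83e-04), and B230398E01Rik covers 26.8% of its exons on the other strand. The other subunit genes, Rfxap and Rfxank, and the NF-Y genes Nfya, Nfyb and Nfyc were not called. Rfxank had 2.18 FPKM in CM + 4OI and 1.84 FPKM in CM. Nr2c2ap covers 33.8% of its exons on the other strand and averaged 14.4 FPKM in CM + 4OI and 8.11 FPKM in CM. Without a stated strand setting, the level and change of Rfxank are uncertain. The number that rose was 2 with the replicate number as a block, where Ifngr1 passed at a limma adjusted p of 0.0386, and also 2 when CM replicate 3 was left out.

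Among 19 other costimulatory and coinhibitory ligands and their regulators, 14 were tested. Of these 7 fell, against 13.2% of all tested genes, 3 rose, against 19.3%, and 4 were not called. The list median log2 fold change was -0.26. Icam1, an adhesion ligand of the immune synapse, fell to 7.72 ± 1.24 FPKM in CM + 4OI, against 16.97 ± 3.28 FPKM in CM (limma adjusted p = 0.00285). Gm47079 overlaps 11.7% of its exon length on the other strand. Tnfrsf14, which encodes HVEM, fell to 9.61 ± 0.436 FPKM in CM + 4OI, against 17.1 ± 0.392 FPKM in CM (limma adjusted p = 9.29e-05). Lgals9, which encodes galectin 9, fell to 142 ± 6.23 FPKM in CM + 4OI, against 209.8 ± 1.998 FPKM in CM (limma adjusted p = 2.06e-04). Tnfsf9, the ligand of 4-1BB, had 3.43 ± 0.732 FPKM in CM + 4OI and 6.32 ± 2.06 FPKM in CM (limma adjusted p = 0.0455, and 0.00438 with the replicate number as a block). Its call was lost without CM + 4OI replicate 2 or 3 (limma adjusted p = 0.129 and 0.125) and without CM replicate 1 or 3 (0.0687 and 0.0855). It was also lost with all samples but no filter on low values (limma adjusted p = 0.127). Gm11110 overlaps 14.9% of the exon length of Tnfsf9 on the other strand. Cmtm6, whose protein keeps PD-L1 at the cell surface, fell with Cd274, to 51.96 ± 1.43 FPKM in CM + 4OI, against 66.96 ± 0.943 FPKM in CM (limma adjusted p = 7.43e-04). Nectin2 and Cd48, both adhesion ligands, also fell (limma adjusted p = 0.0142 and 0.0138). The call of Cd48 was lost when CM + 4OI replicate 2 was left out (0.0517) and under quantile normalization of all samples (0.0617). That of Nectin2 was lost when CM replicate 3 was left out (0.0512). The genes that rose were Cd276, Pvr and Cmtm4. Cmtm4 reached 3.51 ± 0.226 FPKM in CM + 4OI, against 2.57 ± 0.0993 FPKM in CM (limma adjusted p = 0.00691). Its change was thus opposite in direction to those of Cmtm6 and Cd274. With replicate 2 left out of both groups, 4 genes of the list fell.

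Of 11 genes of CD40 signalling, 10 were tested. Of these 4 fell, against 13.2% of all tested genes, 1 rose, against 19.3%, and 5 were not called. The list median log2 fold change was -0.05. Relb, a subunit of the noncanonical NF-kB dimer, fell to 2.39 ± 0.0764 FPKM in CM + 4OI, against 5.07 ± 0.695 FPKM in CM (limma adjusted p = 8.66e-04). Its partner Nfkb2 fell to 8.50 ± 1.26 FPKM in CM + 4OI, against 12.8 ± 0.902 FPKM in CM (limma adjusted p = 0.00912), and AC114539.1 covers 11.6% of its exons on the other strand. Map3k14, the kinase NIK that starts this arm, rose to 2.83 ± 0.139 FPKM in CM + 4OI, against 1.56 ± 0.0817 FPKM in CM (limma adjusted p = 7.66e-04). Birc3, a ubiquitin ligase recruited to CD40, fell to 5.57 ± 0.339 FPKM in CM + 4OI, against 8.40 ± 0.756 FPKM in CM (limma adjusted p = 0.00265). The receptor adaptors Traf2, Traf3, Traf5 and Traf6 were not called. Birc2, a related ligase, fell too (limma adjusted p = 0.0296), but not when CM + 4OI replicate 2 or 3 or CM replicate 1 or 2 was left out (0.0684 to 0.0917). Its call was also lost with no filter on low values (limma adjusted p = 0.0735). With replicate 2 left out of both groups, 2 genes of the list fell and Nfkb2 had a limma adjusted p of 0.0758.

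Of 14 other activation and maturation markers, 9 were tested. Of these 3 fell, against 13.2% of all tested genes, 0 rose, against 19.3%, and 6 were not called. The list median log2 fold change was -0.19. At an unadjusted p under 0.05, 1 gene was higher, Tnfrsf1b, a TNF receptor gene, which passed in the block fit (limma adjusted p = 0.0272). Cd83, which stabilises class II and CD86 at the surface of maturing dendritic cells, fell to 2.01 ± 0.396 FPKM in CM + 4OI, against 4.81 ± 0.162 FPKM in CM (limma adjusted p = 8.20e-04). Slamf7, a receptor of the SLAM family, fell to 35.8 ± 2.28 FPKM in CM + 4OI, against 66.9 ± 2.94 FPKM in CM (limma adjusted p = 1.30e-04). Gm37787 overlaps 9.24% of its exon length on the other strand. Clec2d, a lectin gene 80.8 kb from Cd69, fell to 38.0 ± 4.22 FPKM in CM + 4OI, against 67.5 ± 6.35 FPKM in CM (limma adjusted p = 0.00147).

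**Figure D5:**
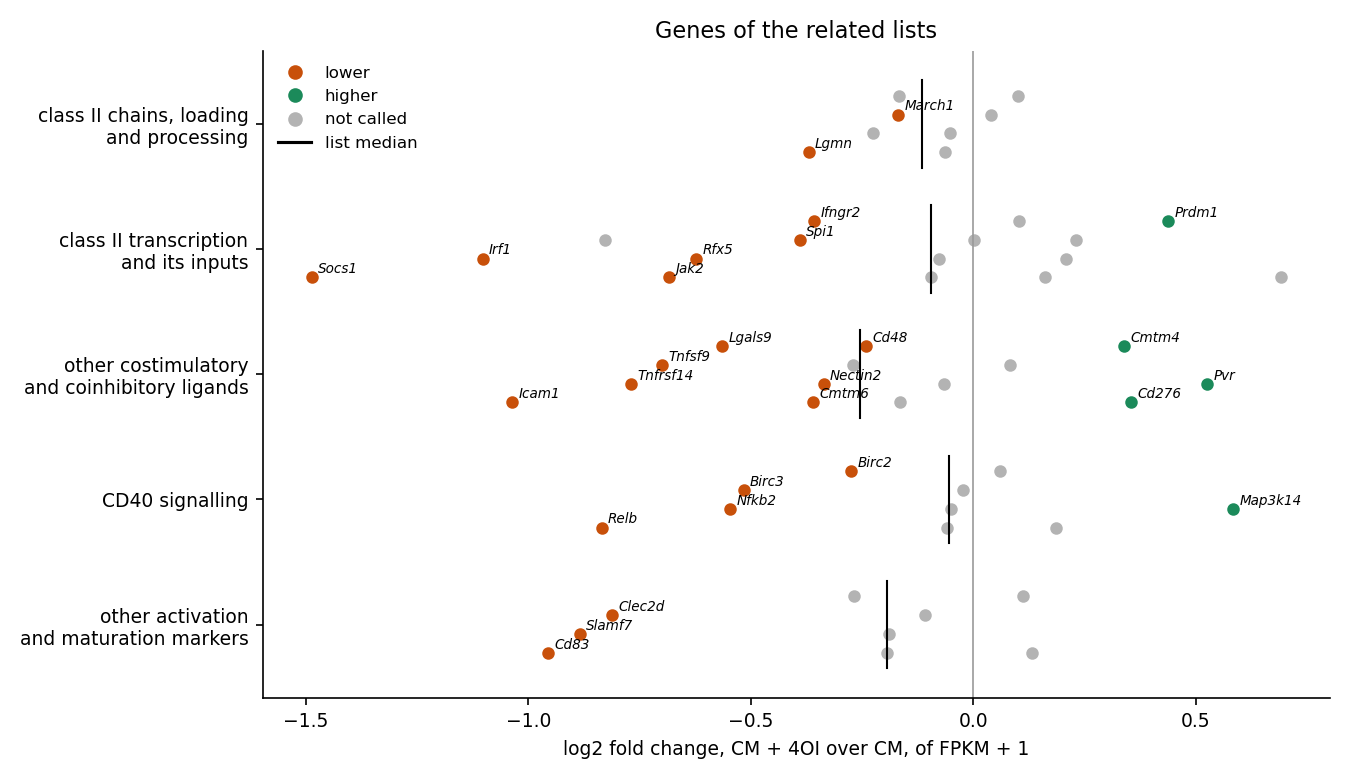
Points place genes of the 5 related lists at their log2 fold change of FPKM + 1, CM + 4OI over CM, coloured by call, with black lines at the medians over all tested genes of each list. The inputs to class II transcription reach -1.49 at Socs1, while the genes of class II loading and processing lie between -0.37 and 0.10.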

How the data were processed

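The authors deposited 1 table of FPKM values with 1 column per sample, per the file headers. FastQC 0.11.2 and the mm10 build are listed per the submitters' processing notes. The aligner, the quantifier, its annotation and the strand setting were not given in the sources used here. Coordinates and overlaps come from GENCODE M21, which lists 99.7% of the IDs.

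Tables were handled with Python 3.11.15 and pandas 2.3.3. Values were transformed to log2(FPKM + 1), and CM + 4OI was compared with CM by the trended moderated test of limma 3.58.1 (R 4.3.3). The 10468 genes averaging 1 FPKM or more over the 6 samples entered it. Tests were two-sided with Benjamini-Hochberg adjustment over these genes, and calls needed an adjusted p below 0.05. The procedure was tested on simulated data. Ratios of FPKM within a sample were compared with exact permutation tests. Depth was estimated from the commonest step of FPKM times length over genes with 1 transcript of at least 500 nt. The transcript lengths behind the FPKM values are unknown, so fragment counts per gene are upper estimates from the longest annotated transcript.

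The groups share replicate numbers, whose meaning the labels do not give. Same-numbered samples deviated together from their group means (r = 0.344, 0.427 and 0.185 for numbers 1, 2 and 3 over the tested genes). The main fit and the permutation tests left the numbers out, so their p-values are unpaired. A fit with the number as a replicate block was run as an alternative, and its values are marked as such. Other alternatives were the pseudocount, the filter on low values, the scaling, the variance trend and leaving out samples.

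The genes named are the 10 members, up to 4 called genes with the largest absolute log2 fold change per related list and, for cell type markers, up to 2 with the highest level. Others were named after their values were seen. The values of 1 gene that this rule names are not reported or drawn here, though counts and medians of its list include it. The members and lists were chosen with earlier results of these data known. Promoter windows are RefSeq's.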

Additional observations from a re-analysis of the deposited data

How the results depend on the processing

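The 4 genes called lower (Cd69, Cd40, Cd274 and Cd86) kept their call under all 15 alternatives, with limma adjusted p from 3.34e-06 for Cd69 to 0.0273 for Cd86, and H2-Aa, H2-Ab1, H2-Eb1, Cd74 and Cd80 were called under none in which they were tested. Cd80 was not tested at a mean FPKM of at least 5. The replicate block changed the call of none of these genes and gave 2336 genes higher and 1523 lower. The direction of the class II chains depended on the setting. The log2 fold change was -0.045 for H2-Aa and -0.033 for H2-Ab1 under median-of-ratios scaling, and -0.0080 for H2-Aa rescaled to TPM. Leaving out 1 sample or replicate 2 of both groups moved it between -0.11 and 0.16 for H2-Aa, -0.18 and 0.23 for H2-Ab1 and -0.37 and 0.15 for H2-Eb1. Over the same settings 1089 to 1855 genes were called higher (1311 without CM + 4OI replicate 2), 1 to 2 genes of class II loading fell, 1 to 2 inputs to class II transcription rose, 4 to 7 costimulatory ligands and 2 to 4 CD40 signalling genes fell. With the replicate block, 2 inputs to class II transcription and 1 activation marker rose, and 3 genes of class II loading fell. Without the filter 1 gene of class II loading fell. At a mean FPKM of at least 5, 0 CD40 signalling genes and 1 activation marker rose, and under quantile normalization 1 activation marker rose and 3 genes of class II loading fell. The cause of these changes was not tested. Some of these settings had fewer samples, and the filter at a mean FPKM of at least 5 had fewer genes. Without the filter more genes were tested, while the block and the quantile normalization kept all samples and genes. Leaving out replicate 2 of both groups was chosen after seeing the data. Depth limits Ciita, Pdcd1lg2 and Cd69 in CM + 4OI, where Cd69 stands for as few as 35.7 fragments even on its longest annotated transcript.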

Other observations

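The transcripts whose level followed or opposed the summed class II chains across the 6 libraries were looked up by a rule chosen after the values had been seen. It took the 5 highest and 5 lowest Pearson r of log2(FPKM + 1) among 288 genes with a mean of at least 5 FPKM and at least a 1.3-fold range in both groups, leaving out predicted genes. The points share 6 libraries and a replicate number, so r is a description only. The closest were Apoc2 (r = 0.920), an apolipoprotein gene, Cxcl14 (r = 0.916), a chemokine gene, Cd74 (r = 0.890), Orai1 (r = 0.889), a calcium channel gene, and Med1 (r = 0.864), a Mediator subunit gene.

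The most opposed were Mfge8 (r = -0.984), which bridges macrophages to apoptotic cells, Top2a (r = -0.980), Rrm2 (r = -0.962), Bhlhe40 (r = -0.959) and Mki67 (r = -0.941). Top2a, Rrm2 and Mki67 are genes of proliferating cells. Mki67 had 6.44, 8.97 and 8.70 FPKM in CM + 4OI samples 1, 2 and 3, against 5.61, 8.88 and 7.17 FPKM in CM. Mfge8 had 78.3, 104.8 and 97.1 FPKM in CM + 4OI samples 1, 2 and 3, against 71.7, 104.8 and 92.3 FPKM in CM. In both genes number 1 was lowest and number 2 highest in each group, the reverse of the class II chains. Itgax, which encodes CD11c, was also lowest in number 1, with 42.5, 66.3 and 64.4 FPKM in CM + 4OI samples 1, 2 and 3, against 37.6, 62.4 and 61.1 FPKM in CM. None of these genes was called between the groups.

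The promoter letters searched in the 250-base windows of H2-Aa, H2-Eb1, Cd80 and Cd274 also included TGANTCA (AP-1), TGACNNNGC (antioxidant response element) and TTCNNNGAA (gamma-activated sequence), each on both strands. They occur in 6.75%, 10.2% and 7.02% of all windows. TGANTCA was found in the window of Cd80, where the RefSeq start differs from the first start in GENCODE, and the other windows held none of the 3. An NF-kB pattern (GGG, any 5 bases, CC), present in 45.8% of all windows, matched H2-Aa, H2-Eb1 and Cd80. An interferon-stimulated response element pattern (TTTC, any 2 bases, TTTC), present in 2.98%, matched none of the 4 genes.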
